A study of Mus musculus with 6 samples.

Results

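Complex I (NADH:ubiquinone oxidoreductase) is the entry point of electrons into the mitochondrial respiratory chain. The mRNAs of its nuclear-encoded subunits were followed in RNA bound to the m6A reader YTHDF2 in tumour regulatory T (Treg) cells. The set holds 36 genes of the 54446 gene identifiers in the count files. Its members were taken from a list of Ensembl identifiers said to follow, in order, the Ndufa, Ndufb, Ndufc, Ndufs and Ndufv genes and Ndufab1. Each symbol below was assigned from that order and could not be checked against a table, and every position, class and promoter rests on it. The list was chosen by gene name, with earlier results of these data known, and each of the 36 identifiers was found in every file.

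The study sequenced 3 libraries of YTHDF2 RNA immunoprecipitates (IP) and 3 of Input RNA. All 6 came from the same kind of cells, CD45+ CD4+ Foxp3-GFP+ Treg cells of WT genotype sorted from subcutaneous tumours of the mouse melanoma line B16F10. The Input group is the 10% of lysate set aside without antibody, and the IP group is the rest after 4 hours on beads carrying an anti-mouse YTHDF2 antibody and 6 washes. No other treatment, mouse age or second genotype is given for either group. Whether a replicate is its own animal, a pool or a repeat of 1 lysate is not in the labels. The p-values therefore measure the spread between libraries, which may be technical. A precipitation with a control antibody or from cells without YTHDF2 was not analysed here, so a low value below is a low value against the Input and not against a control antibody. Since gene symbols outside the list could not be tied to the identifiers, the Treg identity of the cells was not checked against marker genes.

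Complex I passes electrons from NADH through a flavin and a chain of iron-sulfur clusters to ubiquinone, and pumps protons across the inner mitochondrial membrane. Its peripheral arm, which reaches into the matrix, carries the redox centres, and its membrane arm carries the proton channels. A few conserved core subunits do the catalysis, and the many accessory subunits serve assembly and stability. YTHDF2 binds m6A-bearing mRNAs in the cytoplasm and brings them to deadenylation and decay. Treg cells are known to rely on respiration more than conventional effector T cells do.

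The IP libraries held 6847731 to 8465453 gene-assigned reads and the Input libraries 10029733 to 14704617. One library stood apart: IP replicate 3 listed 14200 gene identifiers with a read, against 18501 and 19991 in the other IP libraries. It also had no read for 26.1% of the 15615 genes tested, against 8.57% and 11.4%. Calls that change when it is left out are given with and without it.

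Complex I mRNAs made up a smaller part of the reads after YTHDF2 precipitation than in the Input. In the Input libraries the 36 genes together took 0.130% ± 0.00900 (SD, n = 3) of gene-assigned reads. The IP libraries gave them 0.0395% ± 0.00885 (SD, n = 3). Every IP library, at 0.0325% to 0.0495%, lay below every Input library, at 0.124% to 0.141%. These are shares of the reads, so lower recovery of these mRNAs and higher recovery of others cannot be told apart. The same holds for the level of each gene below, given as CPM, its count scaled to a common library size with TMM factors.

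Of the 36 members, 10 were depleted in the IP at an adjusted p under 0.05 in edgeR's quasi-likelihood test, while 6.11% of all tested genes were. None was enriched, against 4.33% of all tested genes. At an unadjusted p under 0.05 in edgeR none was enriched either, against 10.0%, and the adjusted p of DESeq2 and of limma voom gave 0 too. The depleted members were Ndufa4, Ndufa8, Ndufa10, Ndufa12, Ndufb3, Ndufb4, Ndufb7, Ndufb8, Ndufb11 and Ndufv1. All 10 were at least 2-fold lower, and 5.49% of tested genes were both depleted and at least 2-fold lower. At an unadjusted p under 0.05, 23 members were lower in the IP, against 13.9% of tested genes. Log2 fold changes, always IP over Input, were below 0 for 35 members, as for 53.9% of tested genes. Their median was -2.39 over the members, with quartiles of -3.40 and -1.64, and -0.12 over all tested genes. For 31 members all 3 IP libraries lay below all 3 Input libraries, an arrangement found for 23.7% of tested genes. Among the remaining 5, whose groups overlapped, were Ndufs1, Ndufb2, Ndufb5 and Ndufc1. No member lay above the Input in every IP library, as 12.8% of tested genes did.

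**Figure D1:**
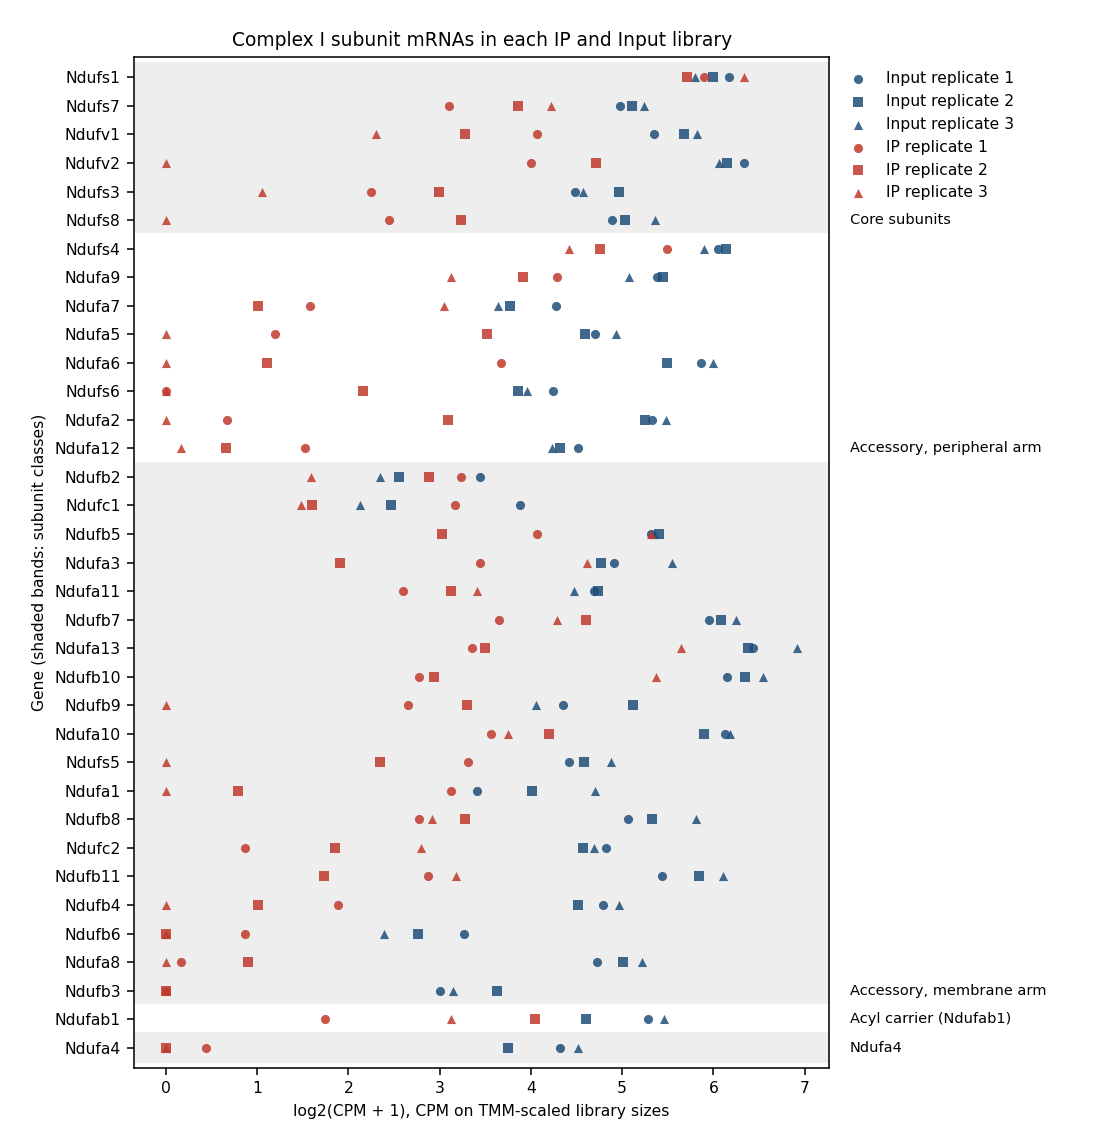
Level of 35 complex I mRNAs in each library, as log2(CPM + 1) on TMM-scaled library sizes (x axis), with genes in rows ordered by subunit class and fitted change, blue symbols for the 3 Input libraries and red for the 3 IP libraries. Red symbols lie left of blue ones for 31 genes, and 14 red triangles (IP replicate 3) sit at 0. CPM is not divided by transcript length, so rows are not comparable with each other.

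The count of depleted members depended on single libraries. Without IP replicate 3 it was 26 of 36, while 8.73% of all tested genes were depleted. Leaving out Input replicate 1 or Input replicate 2 left 6 each, against 3.98% and 3.56%. Without Input replicate 3 only Ndufa8, Ndufa10 and Ndufb11 were called, 8.33% of the members against 3.26% of tested genes. These 3 genes were also the ones whose call held in every alternative setting that tested them. DESeq2's Wald test called 23 members depleted, with a background of 10.0%.

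The core subunits of the peripheral arm spread from a log2 fold change near 0 to one of -2.96. Of these 7, only Ndufv1 passed the test, against 6.11% of all tested genes, and the class median of the log2 fold change was -2.35. Ndufv1 binds the flavin and accepts electrons from NADH. Its gene (ENSMUSG00000037916) lies at chr19:4007499-4012755 (RefSeq, GRCm38.p6). Ndufv1 stood at 39.8, 50.1 and 55.7 CPM in Input replicates 1 to 3 and at 15.8, 8.71 and 3.92 CPM in the IP libraries of the same numbers. All IP values were thus below all Input values. The fit gave -2.35 ± 0.55 (SE) on the log2 scale and, in edgeR's test, an adjusted p of 0.0256. The call was lost in 4 of 17 alternatives: with glmTreat and without IP replicate 2, Input replicate 2 or Input replicate 3. The adjusted p ranged from 0.000293 to 0.106 over them in edgeR, DESeq2 and limma.

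Ndufs1 kept the most reads in the IP. Ndufs1, the large iron-sulfur subunit (ENSMUSG00000025968), lies at chr1:63143592-63176822. It had 70.8, 62.9 and 54.5 CPM in the Input and 58.7, 51.5 and 79.7 CPM in the IP, so the groups were interleaved. Its log2 fold change of 0.01 ± 0.28 (SE) was the highest of the 36, and its adjusted p was 0.988 in edgeR's test. The value turned negative in 6 of 17 alternatives, down to -0.51 with library sizes from all reads, and none of those was called.

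The lowest core subunit was Ndufs8, which carries a pair of the iron-sulfur clusters of the chain. It had 28.6, 31.7 and 39.9 CPM in the Input, 4.45 and 8.42 CPM in IP replicates 1 and 2, and no read in IP replicate 3. The groups did not overlap, but the spread of the IP was wide, and the log2 fold change of -2.96 ± 1.18 (SE) had an adjusted p of 0.155 in edgeR's test. Without IP replicate 3 the log2 fold change was -2.41 and the adjusted p 0.00702. Ndufv2, the partner of Ndufv1, showed the same arrangement, with no read in IP replicate 3 and 15.0 and 25.3 CPM in the others, against 65.7 to 79.5 CPM in the Input. Ndufv2 had a log2 fold change of -2.42 (adjusted p of 0.221, edgeR), and -1.87 without IP replicate 3 (0.00393). Ndufs3 and Ndufs7, both of the region between the flavin and the quinone site, had log2 fold changes of -2.66 and -1.38 and were not called. Without IP replicate 3 they were called, at -2.25 (adjusted p of 0.0169, edgeR) and -1.71 (0.0218).

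Among the 8 accessory subunits of the peripheral arm, every IP library lay below every Input library, as for 23.7% of all tested genes, and 1 passed the test, against 6.11%. The class median was -3.20, with fitted changes from -4.49 to -1.09. The depleted member was Ndufa12 (ENSMUSG00000020022), which lies at chr10:94199035-94221440 and belongs to the NADH-oxidising module. Its Input values were 21.9, 19.0 and 17.9 CPM and its IP values 1.87, 0.581 and 0.119 CPM. All 3 IP libraries were low. The log2 fold change was -4.49 ± 1.10 (SE; adjusted p of 0.0307, edgeR), and the call was lost in 5 of the 16 alternatives that tested it (glmTreat, and without IP replicate 2 or any 1 Input replicate), with an adjusted p of up to 0.140. At the other end was Ndufs4, an assembly-critical subunit whose loss in mice is a model of Leigh syndrome. Ndufs4 had 65.1, 69.3 and 58.6 CPM in the Input and 44.2, 26.0 and 20.3 CPM in the IP. The log2 fold change was -1.09 ± 0.36 (SE), the smallest decrease of its class, and its adjusted p was 0.0857 in edgeR's test.

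The other 6 of this class were Ndufa2, Ndufa5, Ndufa6, Ndufa7, Ndufa9 and Ndufs6. Ndufa2, Ndufa5, Ndufa6 and Ndufs6 had no read in IP replicate 3, and Ndufs6 had none in IP replicate 1 either. Ndufs6, a zinc-binding subunit, had 24 reads in the IP, all in replicate 2, and 128 to 249 reads in each Input library. The log2 fold change of Ndufs6, -3.73, had a standard error of 1.71 and an adjusted p of 0.225 in edgeR's test. Ndufa6 had 100, 8 and 0 reads in the 3 IP libraries and 797, 418 and 726 in the Input. The IP libraries of these genes differed widely from each other, although each was lower than every Input library. Ndufa7 and Ndufa9 had reads in every IP library and log2 fold changes of -2.04 and -1.53. Without IP replicate 3, 4 of these 6 were called in edgeR's test, while 8.73% of all tested genes were depleted. They were Ndufa2 at -3.36 (adjusted p of 0.0220), Ndufa6 at -3.09 (0.0207), Ndufa7 at -3.25 (0.0177) and Ndufa9 at -1.28 (0.0378).

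Of the 19 accessory subunits of the membrane arm, 7 passed the test, against 6.11% of all tested genes, and 16 lay below the Input in every IP library, against 23.7%. The class median was -2.29. Ndufa10 (ENSMUSG00000026260), at chr1:92439486-92473825, had 69.0, 58.5 and 71.8 CPM in the Input and 10.8, 17.4 and 12.5 CPM in the IP. Its replicates were close together in both groups. The log2 fold change was -2.29 ± 0.35 (SE), with the lowest adjusted p of the 36 in edgeR's test, 0.00342, and at most 0.0219 in any alternative. Ndufb7 had 61.1, 66.9 and 75.1 CPM in the Input and 11.6, 23.4 and 18.5 CPM in the IP, and a log2 fold change of -1.93 ± 0.36 (SE; adjusted p of 0.00947, edgeR). Ndufb8 had 32.4, 39.3 and 55.3 CPM in the Input and 5.86, 8.71 and 6.53 CPM in the IP. Its log2 fold change was -2.59 ± 0.48 (SE; adjusted p of 0.00816, edgeR). Both of these calls were lost in 1 alternative, without Input replicate 3, where the adjusted p was 0.0524 for Ndufb7 and 0.0918 for Ndufb8.

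Ndufb11 (ENSMUSG00000031059), an X-linked membrane subunit at chrX:20615326-20617619, was lower by a log2 fold change of -3.31 ± 0.55 (SE; adjusted p of 0.00499, edgeR). It had 42.2, 56.2 and 68.1 CPM in the Input and 6.32, 2.32 and 8.08 CPM in the IP. Ndufb4 had 26.7, 21.8 and 30.3 CPM in the Input, 2.69 and 1.02 CPM in IP replicates 1 and 2, and no read in IP replicate 3. Its log2 fold change of -4.39 ± 1.20 (SE) had an adjusted p of 0.0486 in edgeR's test, close to the threshold, and 7 of 16 alternatives lost the call: upper quartile factors, glmTreat, and leaving out IP replicate 1, IP replicate 2 or any 1 Input replicate. The other X-linked member, Ndufa1, was not called. It had 9.59, 15.2 and 25.1 CPM in the Input and 7.73, 0.726 and 0 CPM in the IP, so the highest IP library came close to the lowest Input library.

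The least recovered members had almost no reads in the IP. Ndufa8, a cysteine-rich subunit of the intermembrane space side (ENSMUSG00000026895), lies at chr2:36036324-36049338. Its reads numbered 353, 295 and 418 in the Input and 1, 6 and 0 in the IP. Summed over libraries and corrected for their sizes, the Input held 104 times the IP reads (95% interval 50.3 to 260, counting error). The fit gave a log2 fold change of -6.57 ± 1.16 (SE; adjusted p of 0.00685, edgeR). Ndufb3 (ENSMUSG00000026032), at chr1:58586397-58595964, had 97, 108 and 91 reads in the Input, while all IP libraries were at 0. Setting each of them to 3 reads, the floor that counting error allows, makes the gene at least 23.0-fold lower there (adjusted p of 0.0259, edgeR). The call was lost with a replicate block and without any 1 Input replicate. The median of the members, -2.39, cannot depend on that bound, since Ndufb3 lies below the median either way. Ndufb6 had 7 reads in IP replicate 1 and none in the others, against 120, 55 and 49 in the Input, and was not called (adjusted p of 0.200, edgeR).

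At the upper end of the membrane arm stood Ndufb2, Ndufc1 and Ndufb5. Ndufb2 had 9.88, 4.85 and 4.07 CPM in the Input and 8.43, 6.39 and 2.02 CPM in the IP, which overlap. Its log2 fold change was -0.16 ± 1.09 (SE; adjusted p of 0.964, edgeR), and 3 of 17 alternatives gave a positive value. Ndufc1 had 13.8, 4.54 and 3.38 CPM in the Input and 7.96, 2.03 and 1.78 CPM in the IP. In both genes replicate 1 was the highest library of its group, in the Input as in the IP. Ndufb5 had 15.8, 7.11 and 39.0 CPM in the IP, the last of which lay within 38.7 to 41.3 CPM of the Input. The fit for Ndufb5 gave a log2 fold change of -0.95 (adjusted p of 0.392, edgeR), and -1.82 without IP replicate 3 (0.0193). The member with the most Input reads was Ndufa13, known also as GRIM-19, with 85.7, 82.2 and 120.0 CPM there and 9.25, 10.3 and 49.2 CPM in the IP. Its log2 fold change of -2.06 ± 0.61 (SE) missed the threshold (adjusted p of 0.0634, edgeR), and without IP replicate 3 it was called at -3.33 (0.00011).

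The other 6 subunits of the membrane arm lay between these ends, none of them called with all libraries, with every IP library below every Input library. Ndufb10 had 70.1, 80.4 and 92.6 CPM in the Input and 5.86, 6.68 and 40.4 CPM in the IP, so that, as for Ndufa13 and Ndufb5, IP replicate 3 was the high one. The log2 fold change of Ndufb10 was -2.20 (adjusted p of 0.0753, edgeR). Ndufc2 had 27.3, 22.7 and 24.8 CPM in the Input and 0.820, 2.61 and 5.94 CPM in the IP, and at an adjusted p of 0.0515 in edgeR's test it was the member closest to the threshold from outside. Ndufa3 and Ndufa11 had reads in all IP libraries and log2 fold changes of -1.48 and -1.68. Ndufb9 and Ndufs5 had none in IP replicate 3 and log2 fold changes of -2.28 and -2.46. Without IP replicate 3, 5 of these 6 were called in edgeR's test, while 8.73% of all tested genes were depleted. They were Ndufb10 at -3.72 (adjusted p of 5.92e-05), Ndufc2 at -3.91 (0.00359), Ndufa3 at -2.43 (0.0232), Ndufa11 at -1.94 (0.0232) and Ndufs5 at -1.90 (0.0388).

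Ndufab1, the mitochondrial acyl carrier protein, sits in both arms. It had 37.9, 23.3 and 43.1 CPM in the Input and 2.34, 15.5 and 7.72 CPM in the IP, with a log2 fold change of -2.03 ± 0.70 (SE; adjusted p of 0.102, edgeR). Ndufa4 carries a complex I name but is now placed with cytochrome c oxidase (complex IV). It was kept among the 36 members, so counts, shares and figures of complex I genes include it, also among the 10 depleted. Its gene (ENSMUSG00000029632) lies at chr6:11900372-11907450 and had 262, 118 and 253 reads in the Input and 3, 0 and 0 in the IP. The same summed ratio was 144 (95% interval 49.1 to 701, counting error). Ndufa4 was called depleted (adjusted p of 0.0138, edgeR), and the call was lost without Input replicate 1 or without Input replicate 3.

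**Figure D2:**
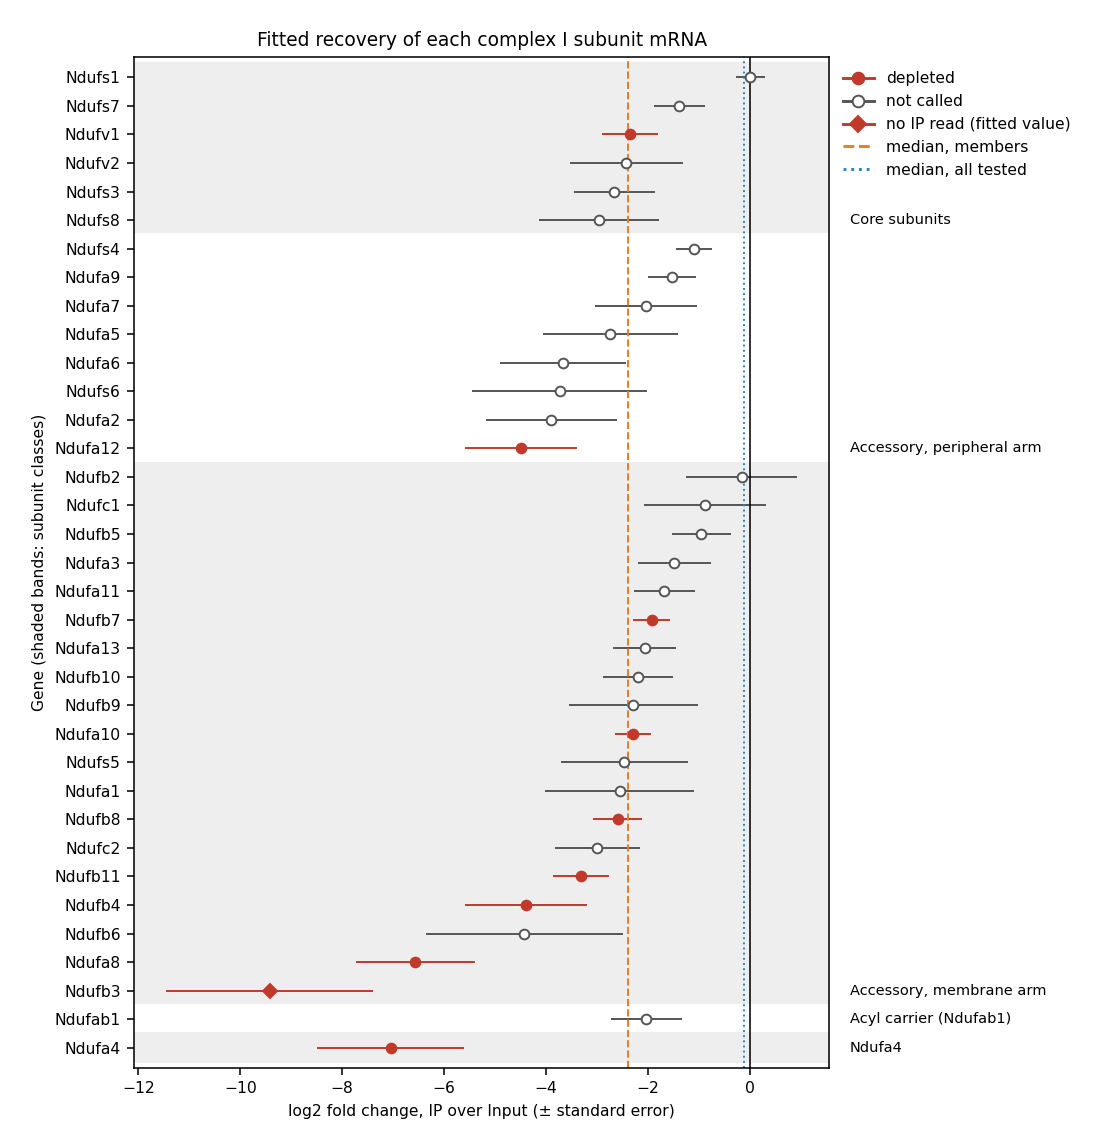
Fitted log2 fold change of IP over Input (x axis) with its standard error for 35 complex I genes (rows, grouped by subunit class). The 10 filled red symbols passed the test, the diamond is Ndufb3 with no IP read, and the dashed and dotted lines are the medians of the members, -2.39, and of all tested genes, -0.12.

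Over all members, missing IP reads were about as frequent as among tested genes. All 36 members had reads in every Input library, at least 39 each, while 14 members (38.9%) had no read in at least 1 IP library, near the 33.7% of tested genes. All 14 lacked a read in IP replicate 3. IP replicate 1 had no read for 2 members (5.56% against 8.57% of tested genes) and IP replicate 2 for 3 (8.33% against 11.4%). For 10 members IP replicate 3 was the only library without a read. Genes were also split by quartile of mean level over all libraries, which a missing IP read itself lowers. From lowest to highest quartile, at least 1 IP library had no read for 1 of 1, 4 of 8, 9 of 24 and 0 of 3 members. The shares of tested genes were 83.4%, 42.4%, 8.68% and 0.384%. In the third quartile, from 13.5 to 49.9 CPM, the 9 were those missing from IP replicate 3, against 8.02%. The same library nevertheless gave complex I its highest share of IP reads. There the 5 most covered members took 66.2% of complex I reads. The 5 most covered members took 52.0% and 44.4% in the other IP libraries and 29.8% to 30.4% in the Input. How far the few genes listed in this library contribute to the missing reads was not tested.

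All 36 members passed the filter on low counts, which asks for about 1.08 CPM in 3 libraries. The Input alone sufficed for each of them, and 19 also reached that level in all IP libraries.

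**Figure D3:**
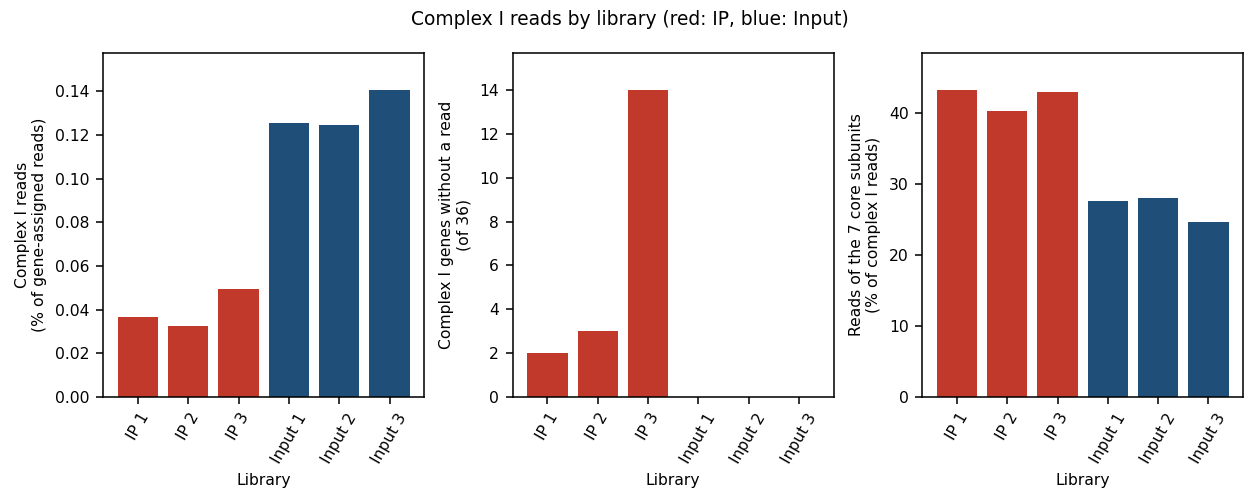
Complex I reads in each library, with IP in red and Input in blue. The panels show, from left to right, the share of gene-assigned reads, the number of the 36 genes without a read (2, 3 and 14 in the IP, 0 in the Input), and the share of complex I reads that falls on the 7 core subunits.

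The make-up of complex I reads differed between IP and Input. Core subunits, 7 in number, took 42.2% ± 1.62 (SD, n = 3) of the complex I reads of IP libraries. Their part of the Input's complex I reads was 26.8% ± 1.83 (SD, n = 3), without overlap. These shares follow from the same counts as the fold changes and were not tested. Replicates of the members were also more alike in the Input. The median coefficient of variation over members was 16.8% for the Input and 89.1% for the IP, where it was larger for 34 of the 35 members with an IP read. No such value is given for all tested genes, so the wider spread is not shown to be particular to the members. Across the 36 members, Pearson's r of log2(CPM + 1) was 0.89 to 0.94 between Input libraries and 0.56 to 0.66 between IP libraries. Genes of the same libraries share depth and are not independent replicates.

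Calls are more frequent at high levels, so the members were set beside tested genes of similar mean level over the 6 libraries. That mean includes the IP, so a low IP moves a gene towards a lower quartile. The comparison is therefore not independent of the depletion. The depleted Ndufa10, Ndufb7 and Ndufb11 had Input means of 66.4, 67.7 and 55.5 CPM. These lie above the third quartile's upper bound of 49.9 CPM, yet the genes were counted in it. In the third quartile 7 of 24 members were depleted, against 5.30% of all tested genes there. In the second quartile, 3.55 to 13.5 CPM, it was 3 of 8 against 2.00%. The 3 members whose mean over the 6 libraries was above 49.9 CPM, Ndufs1 and Ndufa13 among them, gave no call, against 16.9%. The 1 member below 3.55 CPM, Ndufb6, gave none either, against 0.256%. In the third quartile, 23 of 24 members had every IP library below every Input library, against 28.4% of all tested genes there.

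**Figure D4:**
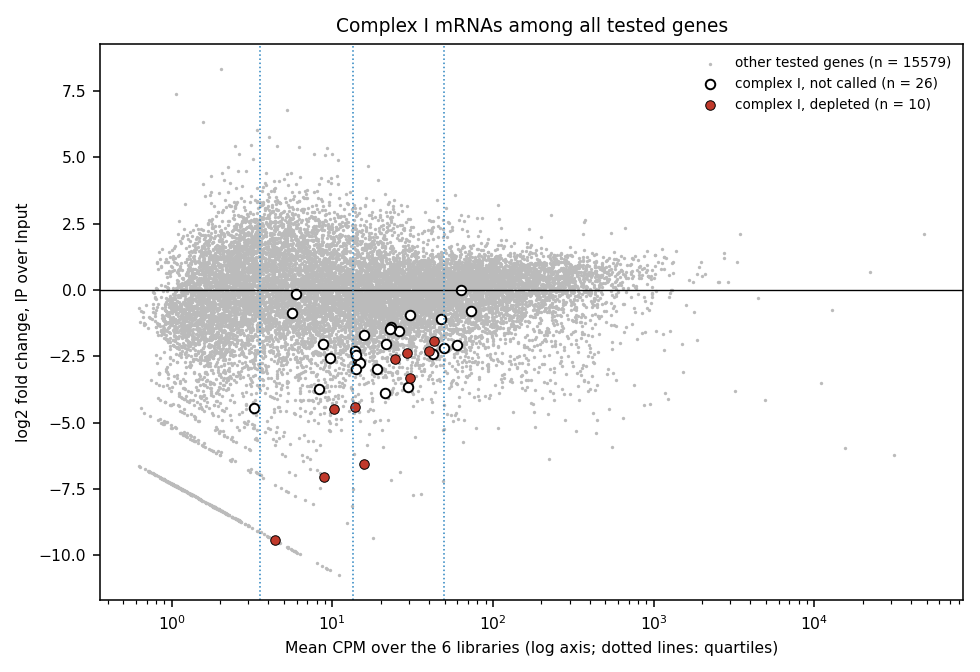
Log2 fold change of IP over Input (y axis) against mean CPM over the 6 libraries (x axis, log scale) for the 15615 tested genes. Grey dots are other genes, open circles the 26 complex I genes not called and red circles the 10 depleted ones. All complex I circles but Ndufs1 lie below 0.

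The members are spread over the genome. All 36 matched a RefSeq gene of GRCm38.p6 by symbol, on 15 chromosomes, with spans from 2256 to 100300 bases and a median of 7744. The 6 members with a span over 20 kb (Ndufs4, Ndufa10, Ndufs1, Ndufa9, Ndufv2 and Ndufa12) had a median log2 fold change of -1.91, and the other 30 had -2.50. Spearman's rho between span and log2 fold change was 0.17 over the 36 members, which share libraries. Spans include introns and are not transcript lengths. The span of 10 members overlaps that of another RefSeq gene, among them the depleted Ndufa10, with a miRNA gene inside, and Ndufb11, beside Rbm10. The library kit marks the strand, but the sources used here do not say whether the counting used it, so reads of such pairs may have been mixed. A pseudogene named after the member is listed for Ndufa12, Ndufs5 and Ndufab1, and reads shared with it are uncertain.

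Promoters of the members were searched for elements known from respiratory chain genes, although the assay does not measure promoters. The 250 bases before the start site were available for 32 members in RefSeq (GRCm38.p6), and each motif was looked for on both strands. These 32 members had 34 promoters. The shares of members count genes, while the shares of all promoters count promoters, so the units differ. The letters GCATGCGC, a form of the site of nuclear respiratory factor 1 (NRF-1), were found for 3 members (9.38%) and in 2.26% of 32851 promoters of that length. CCGGAAG, a form of the site of GABP, was found for 3 members (9.38%) and in 6.91% of promoters. CCATNTT, a form of the site of YY1, was found for 6 members (18.8%) and in 12.4% of promoters. GCCATTTT, which contains the former, was found for 1 member (3.12%) and in 1.09%. The depleted members with a match are shown, 5′ to 3′ on the gene's strand with matches in capitals: Ndufa8 (GCATGCGC) at chr2:36049339-36049588, minus strand, Ndufb7 (CCGGAAG) at chr8:83566508-83566757, plus strand, and Ndufb11 (GCCATTTT, on the opposite strand) at chrX:20617620-20617869, minus strand.
Ndufa8: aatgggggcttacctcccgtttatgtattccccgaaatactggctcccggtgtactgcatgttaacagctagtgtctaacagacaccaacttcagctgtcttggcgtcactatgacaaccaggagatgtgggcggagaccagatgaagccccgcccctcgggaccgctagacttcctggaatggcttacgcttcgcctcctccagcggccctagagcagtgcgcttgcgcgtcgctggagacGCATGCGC
Ndufb7: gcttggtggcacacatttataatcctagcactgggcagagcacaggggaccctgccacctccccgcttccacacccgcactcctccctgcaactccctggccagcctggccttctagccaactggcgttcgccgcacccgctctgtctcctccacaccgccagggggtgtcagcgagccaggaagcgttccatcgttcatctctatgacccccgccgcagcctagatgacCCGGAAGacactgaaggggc
Ndufb11: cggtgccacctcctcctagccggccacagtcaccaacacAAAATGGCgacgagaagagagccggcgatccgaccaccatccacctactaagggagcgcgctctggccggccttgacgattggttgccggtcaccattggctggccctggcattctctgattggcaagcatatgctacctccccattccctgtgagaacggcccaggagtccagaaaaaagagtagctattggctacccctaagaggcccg
A match describes the letters alone, and the other 7 depleted members hold none of these spellings in that window.

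Over the 17 alternative settings, the depleted share of complex I genes was set beside that of all tested genes. DESeq2 and limma voom called 23 and 22 members, with backgrounds of 10.0% and 11.0%. Library sizes from all reads, which count reads outside genes too, gave 21 against 12.5%, and testing every gene with a read gave 18 against 3.29%. The filters of 1 CPM in all libraries and of a mean count of 50 gave 12 of 20 against 12.5% and 10 of 34 against 9.01%. Total counts and RLE factors gave 10 each, against 5.60% and 5.89%, and upper quartile factors gave 9 against 5.13%. A replicate block gave 11 against 7.01%, and glmTreat, a test against a 1.5-fold change, gave 7 against 3.78%. Without IP replicate 1 it was 11, and without IP replicate 2 it was 9, both against 4.62%.

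**Figure D5:**
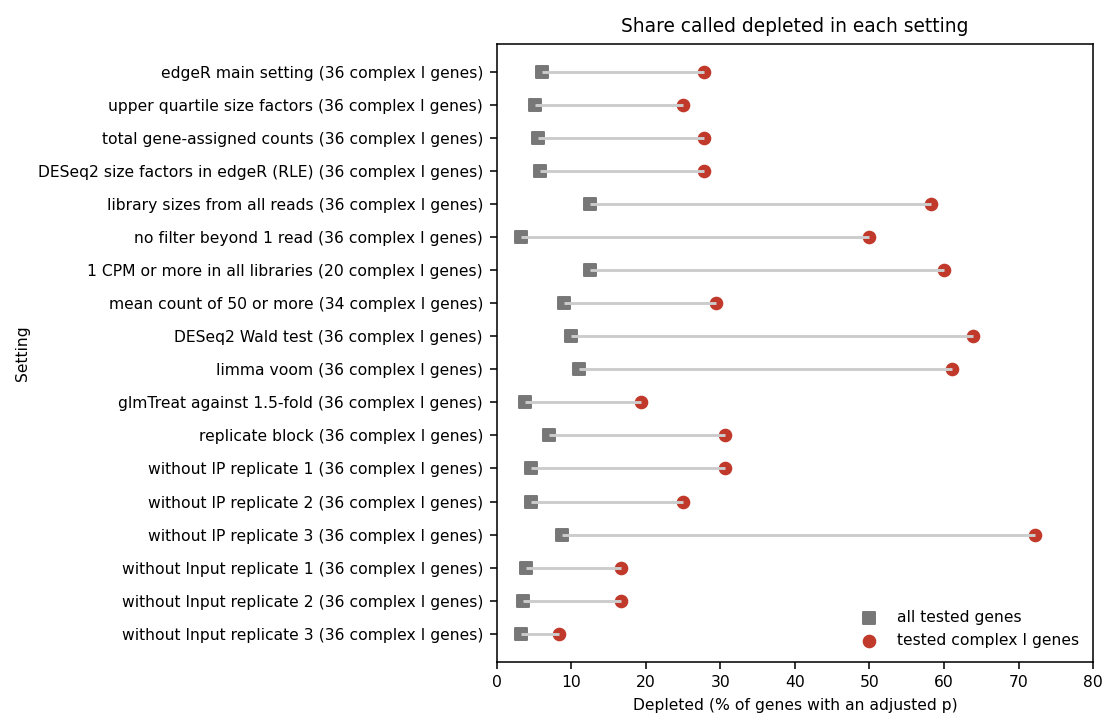
Share of genes called depleted (x axis, percent of genes with an adjusted p) in the main setting and each alternative (rows), with grey squares for all tested genes and red circles for complex I genes. The complex I share lies above the background in each row, from 8.33% against 3.26% without Input replicate 3 to 72.2% against 8.73% without IP replicate 3.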

How the data were processed

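Each library has 1 deposited file with the authors' counts, whole numbers of reads per Ensembl gene, not normalized. Per the submitters' processing notes, Trimmomatic 0.39, HISAT2 2.1.0, HTSeq and DESeq2 were used with build mm10, with no role or order given. The sources used here name neither annotation release, strand setting nor duplicate handling, and these can change counts of overlapping genes. Neither the 92 spike-in rows nor the 5 summary rows entered library sizes or tests. Reads outside annotated genes were 71.2% to 72.1% of IP and 49.6% to 51.6% of Input reads.

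IP was compared with Input over all genes in edgeR 4.0.16 (R 4.3.3) by its two-sided quasi-likelihood test, with filterByExpr, TMM factors, robust dispersion and group as the only term. P-values were adjusted by Benjamini-Hochberg over 15615 tested genes. Standard errors come from the F statistics. Pooled Input-to-IP ratios have exact binomial (Clopper-Pearson) 95% intervals, and a floor of 3 reads stands in for 0. The files hold no molecular identifiers, so intervals and floors cover counting error only. The test was checked on simulated counts with known changes. These had the same dispersion in both groups, with changes only in more highly expressed genes. The check therefore does not cover the wider spread of the IP or the missing reads of IP replicate 3. Alternatives were other size factors and filters, DESeq2 1.42.0, limma 3.58.1 voom, glmTreat, a replicate block and leaving out each library.

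Members and lists were chosen with earlier results of these data known. All 36 members enter the counts, and 1 is not reported here by itself. Library values were described for depleted members and, per class, for the highest and lowest change and the most Input reads; others were named after their values were seen. Subunit classes follow textbook knowledge. Symbols were assigned from the order of the list of members, unchecked. The reference table paired no Ensembl identifier with a symbol (0 of 49997 rows), so assembly factors, mitochondrially encoded subunits, other respiratory complexes and cell type markers were not analysed here. Transcript and protein sequences were not used here. Longer spellings of the promoter motifs were also searched and are not reported here.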

Additional observations from a re-analysis of the deposited data

How the results depend on the processing

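The number of depleted complex I genes was 10 in the main setting, 21 with library sizes from all reads, 18 with no filter beyond 1 read, 23 with DESeq2 and 22 with limma voom, with the backgrounds given above. Leaving out 1 library gave 3 to 26. It was 7 to 12 in the other settings, and 0 members were enriched in each of the 17 alternatives. The filter of 1 CPM in all libraries kept 20 members, of which 12 were depleted against 12.5%, and 5 of these were among the 10. The median log2 fold change of the members was -2.93 with library sizes from all reads, -1.78 with the filter of 1 CPM (fewer members), -2.86 with limma voom and -2.88 with a replicate block, against -2.39, and -2.68 to -2.26 without 1 library. Over all tested genes the median moved too, from -0.12 to -0.65 with all reads and 0.06 with the filter of 1 CPM. It was -0.57 with limma voom and -0.5 with a replicate block. On the genes tested in both settings, the log2 fold changes moved by a median of -0.53 with library sizes from all reads and of 0.20 with upper quartile factors. With all reads 12.5% of tested genes were depleted and 1.02% enriched, with upper quartile factors 5.13% and 6.92%. The sign turned for 2 members, neither called in any setting. Ndufs1 was at -0.51 with library sizes from all reads, at -0.0672 with no filter, at -0.0044 with a replicate block and at -0.22 to 0.10 without 1 library. Ndufb2 was at 0.0299 with upper quartile factors and at -0.63 to 0.23 without 1 library. Of the 10 calls 7 were lost in at least 1 alternative, and 21 of the 26 uncalled members were called in at least 1. The 5 called in none were Ndufa1, Ndufb2, Ndufb9, Ndufc1 and Ndufs1. With the replicate block 11 members were depleted, 9 of them among the 10, and the Ndufb3 call was lost. Deviations of same-numbered libraries correlated at 0.0999, 0.026 and 0.0242, each library best with its own number. The protocol splits a lysate into Input and IP, but the labels do not say that equal numbers share one. The correlations were below 0.1 in every pair, and they cannot show whether equal numbers share a lysate. The main fit has no replicate block, since the labels give no pairing. The cause of the correlations was not tested. The IP libraries' depth and missing reads limit what a missing call can show.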
